A study of Arabidopsis thaliana with 8 samples.

Results

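The 50 genes described here encode the receptors and transcriptional regulators of the nuclear auxin pathway in Arabidopsis thaliana: 6 TIR1/AFB receptors, 29 Aux/IAA repressors and 15 ARF transcription factors. They were chosen by locus identifier as family members. The choice used no measured value, but earlier results of these data were known when it was made. ARF numbers have gaps among the 15, which are not read as the whole ARF family. Of these 50 loci, 40 were listed in the deposited count table, in 42 rows, among 17710 loci and 17921 gene models in all. The remaining 10 had no row and were not analysed here: the Aux/IAA genes IAA8, IAA9, IAA11 and IAA32, and the ARF genes ARF1, ARF2, ARF6, ARF7, ARF8 and ARF11. In the TAIR10.1 annotation each of these 10 has between 2 and 5 models, and every member with 1 model was listed. Why they have no row is not stated, so absence is not read as a low level. A further 5 loci had a row with 0 counts in both libraries, namely IAA12, IAA13, IAA15, IAA31 and IAA33.

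The study profiled shoots of seedlings aged 7 days, raised upright on MS agar under a daily cycle of 16 h light and 8 h dark, in 4 genotypes (Col, CA1-1, cae2-1 and their combination cae2-1 CA1-1) with 2 samples each. Only the columns named after the 2 Col samples match the labels by name, and no label gives a genotype for the other 6 count columns, so only Col is described. Col is the Columbia accession, the reference genotype, with no mutation or transgene named in the labels. The series text calls the replicates biological, but whether they grew on separate plates is not stated, so every p-value below measures a difference between 2 libraries and not between conditions.

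Auxin acts as a molecular glue between a TIR1/AFB F-box protein, which is the substrate receptor of an SCF ubiquitin ligase, and a short degron in an Aux/IAA protein, which is then ubiquitinated and degraded. Aux/IAA proteins bind ARF proteins and recruit TOPLESS corepressors, so their loss releases transcription at the auxin response elements to which ARF proteins bind. Many Aux/IAA genes are themselves targets of this pathway, which makes the family a classic set of early auxin response genes. In seedling shoots the pathway is known for its roles in hypocotyl and petiole elongation, leaf and vein formation and the shape of epidermal cells.

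The degron is the contact between repressor and receptor, and its coding sequence is shown for the 4 Aux/IAA genes with the highest level per length and for IAA27, whose core ends in isoleucine in place of valine. Sequences were read by locus from the RefSeq annotation and genome of assembly TAIR10.1, on the coding strand, and capitals mark the 5 codons of the core (glycine, tryptophan, proline, proline, then valine or isoleucine).
IAA2: atcgttGGTTGGCCACCAGTGagatcttcc
IAA7: gtggtgGGATGGCCACCTGTGaggaactac
IAA19: gtggtgGGGTGGCCACCGGTTtgttcttac
IAA16: gttgtgGGATGGCCACCGGTAcgatctttc
IAA27: gtggtgGGATGGCCACCAATAagatcattc
An exact core was encoded by 22 of the 29 Aux/IAA genes, with valine in 17 and isoleucine in 5. The 7 genes without it were IAA10, IAA20, IAA30, IAA31, IAA32, IAA33 and IAA34. Of these, IAA10 and IAA31 held a near match to the core, while IAA20, IAA30 and IAA32 to IAA34 are known as family members without a conventional degron.

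The promoters of IAA2 and IAA19 are shown because these were the highest and the third highest Aux/IAA genes per length and moved in opposite directions between the libraries. Each run is the 300 bases before the annotated transcript start in TAIR10.1 (IAA2 on the minus strand, IAA19 on the plus strand), and capitals mark the auxin response elements TGTCTC and TGTCGG on either strand.
IAA2, chr3:8181854-8182153: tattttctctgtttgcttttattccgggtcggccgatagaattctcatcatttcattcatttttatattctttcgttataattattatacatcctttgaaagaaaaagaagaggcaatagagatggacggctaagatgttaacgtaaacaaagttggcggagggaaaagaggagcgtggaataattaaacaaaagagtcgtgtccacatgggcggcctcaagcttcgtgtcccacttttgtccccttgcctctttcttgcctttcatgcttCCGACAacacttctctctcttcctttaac
IAA19, chr3:5263701-5264000: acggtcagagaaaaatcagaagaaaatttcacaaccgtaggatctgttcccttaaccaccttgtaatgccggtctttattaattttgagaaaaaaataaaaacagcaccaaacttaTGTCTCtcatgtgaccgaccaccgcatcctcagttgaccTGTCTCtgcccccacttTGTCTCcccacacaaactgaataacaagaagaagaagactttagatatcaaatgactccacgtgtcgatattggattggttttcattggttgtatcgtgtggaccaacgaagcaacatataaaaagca
TGTCTC occurred 3 times in the IAA19 window, and the IAA2 window held 1 copy of TGTCGG, on the opposite strand. The window of IAA7 is not shown and held neither element. IAA7 lay between these genes by mean level per length and also moved opposite to IAA2. Over the 29 Aux/IAA genes, TGTCTC was found in 37.9% and TGTCGG in 24.1% of windows of this length. Among 17301 listed nuclear loci with an annotated model these shares were 13.1% and 5.25%. The 15 ARF promoters held them in 6.67% and 13.3% of windows, and of the 6 receptor promoters 1, that of AFB5, held TGTCTC. A match describes these letters and is not evidence of binding.

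Some ARF and receptor transcripts are known to be cut by microRNAs, and the sites are shown because they mark which listed members hold a close match. The mature miRNAs, with the seed (bases 2 to 8) in capitals, and the best-matching site in each transcript, with bases complementary to the miRNA in capitals, were as follows.
ath-miR160a-5p: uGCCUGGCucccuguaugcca
ARF10: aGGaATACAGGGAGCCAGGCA
ARF16: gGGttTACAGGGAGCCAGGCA
ARF17: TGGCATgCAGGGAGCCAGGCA
ath-miR393a-5p: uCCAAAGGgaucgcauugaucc
TIR1: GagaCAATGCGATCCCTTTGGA
AFB1: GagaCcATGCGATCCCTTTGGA
AFB2: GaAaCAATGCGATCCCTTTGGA
AFB3: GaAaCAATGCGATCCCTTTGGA
For ath-miR160a-5p the sites had 2 mismatches in ARF10, 3 in ARF16 and 1 in ARF17, and no other ARF transcript came closer than 8. For ath-miR393a-5p the sites had 3 mismatches in TIR1, 4 in AFB1 and 2 in both AFB2 and AFB3, whose sites were identical, against 7 in AFB4 and 8 in AFB5. All sites printed here lie in coding sequence. The miRNAs themselves were not measured, and a match is not evidence that a transcript is cut.

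Over the listed models the first Col library held 2571129 counts and the second 2408685, which is 55.5% and 53.6% of the numbers in the column headers, whose meaning is not stated. Levels are given as CPM (counts scaled to a common library size after TMM adjustment), and levels of genes are compared with each other as CPM per kb of the listed transcript. Counts of genes that reach 5 or 100 CPM are not adjusted for length. Of the shoot markers, 6 of 8 were listed, all above 100 CPM, and their sum was 40456 CPM in replicate 1 against 25162 in replicate 2; 5 of the 6 differed, all higher in replicate 1, where 54.5% of all models differed and 27.4% were higher in replicate 1 (test described with the library comparison below). Of the 10 root markers 8 were at 0 in both libraries, and CASP1 and CASP2 brought their sum to 29.7 CPM against 11.3, with CASP1 higher in replicate 1. The part of these marker differences in the results below was not tested. In whole shoots, fewer cells of a type and less RNA per cell cannot be told apart.

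All 6 receptor genes were detected, and AFB1 was the highest of them per length in both libraries. Its 606 and 755 counts (replicates 1 and 2) correspond to 105 and 131 CPM per kb (118 ± 18.4, SD, n = 2). AFB1 encodes a receptor noted for rapid, non-transcriptional auxin responses in roots. AFB3 followed with 76.2 and 43.8 CPM per kb (60.0 ± 22.9). Values of AFB1 and AFB3 did not overlap, and together they made up 77.4% of the summed receptor level in replicate 1 and 81.3% in replicate 2. In the annotation 423 of 2324 bases of AFB1 and 638 of 2234 of AFB3 overlap an opposite-strand lncRNA, and the strand setting of the counting is not given.

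TIR1, the founding auxin receptor, stood well below AFB1, at 17.7 CPM per kb in replicate 1 and 11.7 in replicate 2. AFB2, its close relative in function, had 16.1 and 17.6 CPM per kb. These ranges overlapped, so the order of TIR1 and AFB2 was not resolved. AFB5, one of the receptors through which picloram-type herbicides act, had 13.7 and 7.81 CPM per kb, below TIR1 in each library although the ranges overlapped. AFB4, its paralog, was the lowest receptor at 5.14 and 3.09 CPM per kb. AFB4 was listed as 2 models, and the level given is that of isoform 2 (30 and 18 counts). Isoform 1 had 6 and 10 counts, and how reads were split between isoforms is not given.

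The Aux/IAA repressors spanned the widest range, from 0 to the 99.6th percentile of all listed models by CPM per kb. IAA2, an auxin-induced repressor, was the highest, with 2028 counts in replicate 1 and 4002 in replicate 2. This corresponds to 768 and 1519 CPM per kb (1143 ± 531, SD, n = 2). It alone took 25.3% of the summed Aux/IAA level in replicate 1 and 46.2% in replicate 2.

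IAA7 (AXR2), a repressor in which a stabilizing degron mutation causes auxin resistance, came next with 540 CPM per kb in replicate 1 and 249 in replicate 2. IAA19 (MSG2), known from phototropism and hypocotyl growth, had 452 and 258 CPM per kb. IAA16, which is related to IAA7, had 320 and 374 CPM per kb. The ranges of these 3 genes overlapped, so no order among them holds against the spread between libraries. IAA2, IAA7 and IAA19 together made up 57.9% of the summed Aux/IAA level in replicate 1 and 61.6% in replicate 2. IAA2 lay above all 3 in each library.

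A middle group was formed by IAA3 (SHY2), IAA29, IAA4, IAA5, IAA1 and IAA26. IAA3, known from photomorphogenesis, had 210 and 172 CPM per kb. In the current annotation 508 of the 1189 bases of its model overlap AT1G04230 on the opposite strand, and without a stated strand setting reads of the overlap cannot be assigned. IAA29, a shade and warmth induced repressor, had 190 and 127 CPM per kb. IAA4 had 81.1 and 152 CPM per kb. IAA5 had 137 and 87.6. IAA1 had 74.7 and 138. The ranges of IAA29, IAA4, IAA5 and IAA1 all overlapped. Within each library IAA29 was above IAA5 and IAA4 above IAA1, and the order of the other pairs among these 4 changed between libraries. IAA26 had 68.9 and 70.9 CPM per kb, its libraries were nearly equal and it lay below the other genes of the group.

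The lower Aux/IAA genes included several known from roots. IAA6, related to IAA19, had 48.7 and 14.6 CPM per kb. IAA14 (SLR), a repressor of lateral root formation, had 24.4 and 11.2 CPM per kb, and IAA17 (AXR3) had 24.7 and 15.6. IAA28, another repressor of lateral root initiation, had 8.95 and 13.6 CPM per kb. IAA18 and IAA27 lay at 28.4 ± 1.23 and 29.4 ± 2.03 CPM per kb. Below them, IAA20 had 13.7 and 18.8, IAA30 had 8.17 and 5.46, and IAA10 had 9.82 and 1.85 CPM per kb. In the annotation 376 of the 1308 bases of IAA10 overlap an opposite-strand gene. IAA34 had 0 counts in replicate 1 and 4 in replicate 2.

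The 5 Aux/IAA genes at 0 in both libraries include IAA12 (BDL), which acts with ARF5 in the embryo, and its paralog IAA13. IAA12 was listed with isoform 2 and IAA13 with isoform 3 only, so their 0 describes these models and may differ from the whole gene. No model of either library had a count of 1 while 690 and 715 had a count of 2, so a listed 0 may stand for 1. It therefore allows up to 4.74 counts (1.9 CPM for replicate 1, 1.91 for replicate 2). This limit and the intervals below cover counting error only. They cover neither variation between samples nor PCR copies, which were not told apart by molecular identifiers.

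**Figure D1:**
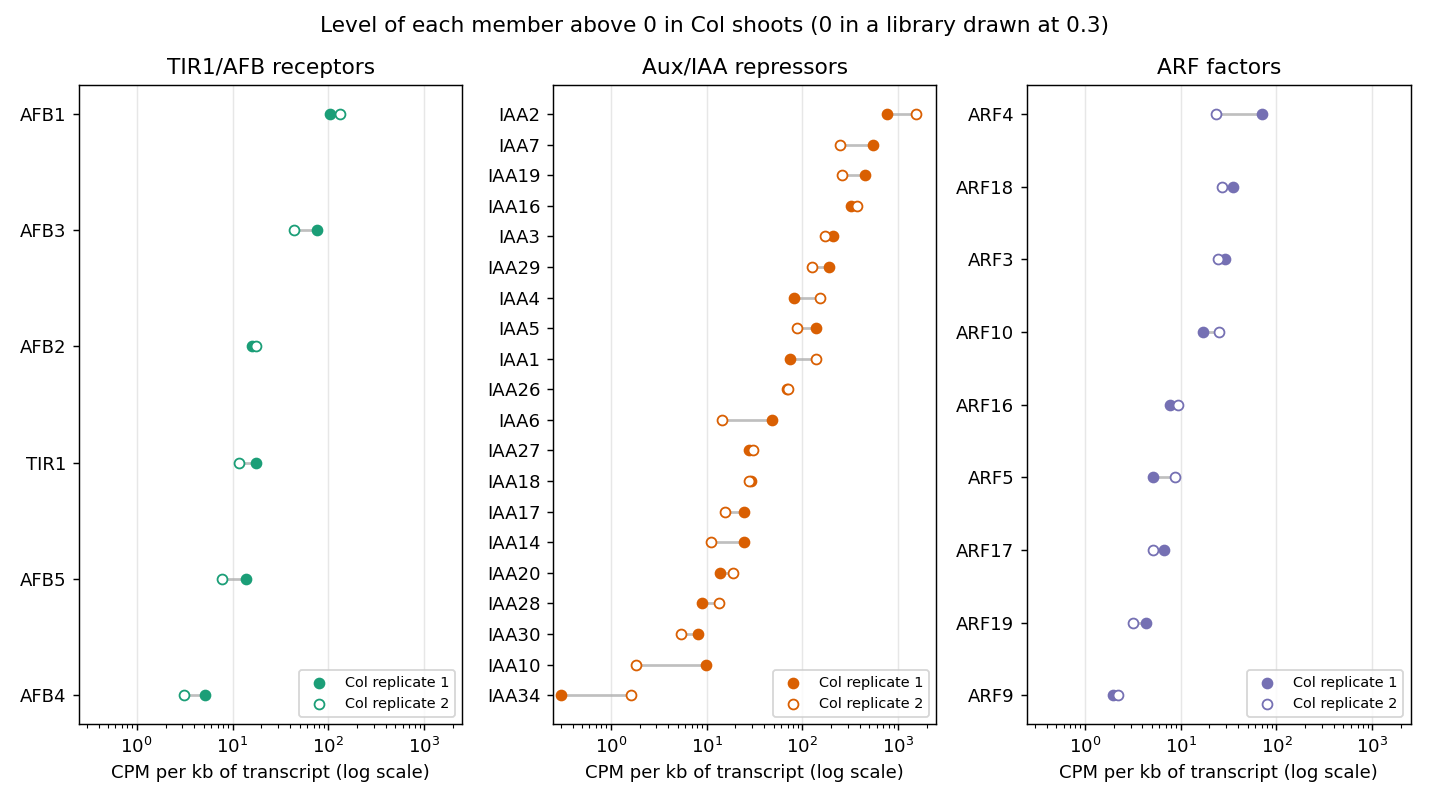
Level of each member above 0 in CPM per kb of transcript (log scale) in Col replicate 1 (filled) and replicate 2 (open), with a panel per family. IAA2 at 768 and 1519 CPM per kb lies above all other members, AFB1 leads the receptors, and ARF4 leads the ARF genes with a wide gap between its libraries.

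Aux/IAA genes with an exact degron core had a higher median level than those without it. Of the 19 listed genes with the core, 9 reached 100 CPM and the median was 69.9 CPM per kb, with a range from 0 to 1143. Of the 6 listed genes without it, none reached 100 CPM, and the median was 3.32 and the highest value 16.3 CPM per kb, that of IAA20. The medians were 68.9 and 4.09 CPM per kb in replicate 1 and 70.9 and 1.73 in replicate 2. The groups overlap, since IAA12, IAA13 and IAA15 carry the core and were at 0, and this difference across genes was not tested. Among listed genes with the core, the 16 that end in valine had a median of 109 CPM per kb. Of the 3 that end in isoleucine, IAA27 was above 0. IAA12 and IAA13 were at 0 for isoforms 2 and 3, their only listed models, and IAA8 and IAA11 had no row. The 12 listed Aux/IAA genes with either response element in the promoter window had a median of 30.5 CPM per kb, against 20.1 for the 13 without. In these groups 4 of 12 and 5 of 13 reached 100 CPM. Both groups held genes at 0, and this difference was not tested either.

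**Figure D2:**
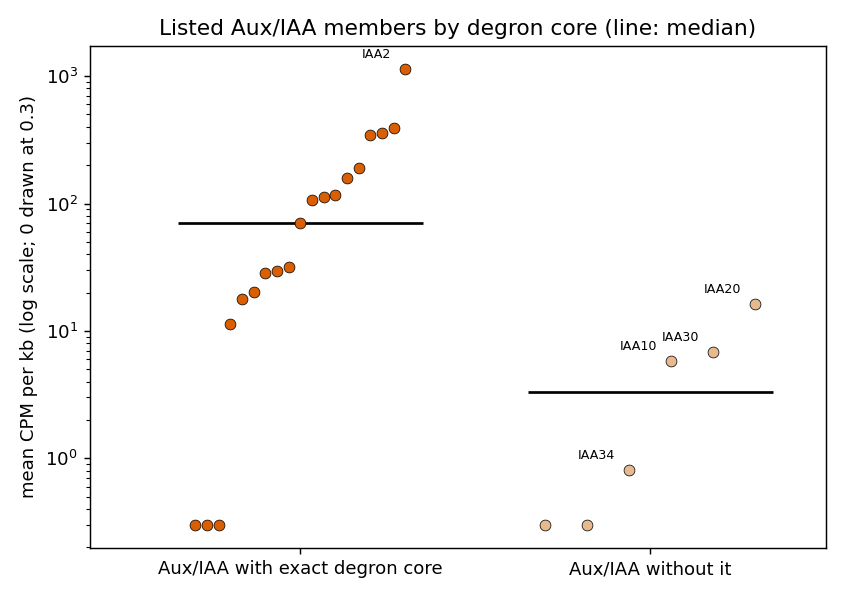
Mean CPM per kb (log scale, 0 drawn at 0.3) of each listed Aux/IAA gene, for genes with and without the exact degron core, with a line at the median. The medians are 69.9 and 3.32 CPM per kb, and 3 genes with the core and 2 without it lie at 0. For IAA12 and IAA13 this is the level of isoforms 2 and 3 only.

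Among listed members, the ARF genes were the lowest family by median and were led by ARF4. ARF4, which acts with ARF3 in specifying the lower leaf side, had 581 and 188 counts in replicates 1 and 2, which is 71.4 and 23.2 CPM per kb (47.3 ± 34.1, SD, n = 2). ARF18 had 35.3 and 27.0 CPM per kb, and ARF3 (ETTIN) had 29.1 and 24.7. ARF4 was above both in replicate 1 and below both in replicate 2, so it leads by its mean only.

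Of the 3 ARF genes with a miR160 site, ARF10 had 17.2 and 25.3 CPM per kb, ARF16 had 7.66 and 9.44, and ARF17 had 6.76 and 5.21. Transcriptional activators among the ARF proteins are ARF5, ARF6, ARF7, ARF8 and ARF19, and of these ARF5 and ARF19 were listed. ARF5 (MONOPTEROS), required for vein and organ formation, had 46 and 79 counts, or 5.11 and 8.79 CPM per kb. ARF19, which shares roles with ARF7 in lateral root formation and tropism, had 4.36 and 3.16 CPM per kb. ARF9 was the lowest at 1.95 and 2.24 CPM per kb, for its isoform 2.

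Median levels over listed members were 28.4 CPM per kb for the Aux/IAA genes, 15.8 for the receptors and 8.55 for the ARF genes, against 6.13 for all listed models. In replicate 2 alone the Aux/IAA median was 18.8 CPM per kb. Of 40 listed members, 34 averaged 5 CPM or more (85%), compared with 59.7% of all listed models. At least 100 CPM was reached by 12 of 40 (30%), compared with 11.1%. With the header numbers as library sizes, 7 of the 40 listed members reached 100 CPM, compared with 5.47% of all listed models. The summed Aux/IAA level was 17 times that of the listed ARF genes in replicate 1 and 25.5 times in replicate 2, and 13 and 15.3 times that of the receptors. With 6 ARF and 4 Aux/IAA genes absent from the table, these ratios hold for listed members only.

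Close relatives differed widely in level, and in 12 of 13 related pairs with counts in both libraries the same gene was higher in each. IAA7 exceeded IAA14, with which it shares 85.4% of aligned coding bases, by 22.1 times in replicate 1 and 22.2 times in replicate 2. IAA2 exceeded IAA1 (85.1% identical) by 10.3 and 11 times. IAA19 exceeded IAA6 (76.3%) by 9.28 and 17.7 times and IAA5 (72.7%) by 3.31 and 2.94 times. In these pairs the gap held in each library.

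Smaller gaps were seen between IAA3 and IAA4 (2.58 and 1.13 times, 83.3% identical) and between IAA26 and IAA18 (2.35 and 2.57 times, 81.7%). IAA20 exceeded IAA30 (84.9%) by 1.68 and 3.44 times. Among the receptors, AFB1 exceeded TIR1 (69.9%) by 5.90 and 11.2 times, AFB3 exceeded AFB2 (82.1%) by 4.72 and 2.48 times, and AFB5 exceeded AFB4 (81.4%) by 2.66 and 2.53 times. Among the ARF genes, ARF18 exceeded ARF9 (67.9%) by 18.1 and 12.1 times and ARF10 exceeded ARF16 (67.4%) by 2.24 and 2.68 times. The exception was IAA7 and IAA16 (71.0%), where IAA7 was higher in replicate 1 and IAA16 in replicate 2. Ratios between similar copies also depend on how reads that match several genes were counted, which is not given.

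Between the Col libraries, 21 of the 34 members at 5 CPM or more (61.8%) differed beyond counting noise, against 54.5% of all 10701 models tested (exact binomial test, two-sided, Benjamini-Hochberg adjusted p under 0.05). With a filter at 1 CPM in place of 5 the shares were 61.8% and 45%, and at 20 CPM they were 76.9% and 66.2%. At 5 CPM the members' share was near the background, and their median absolute log2 ratio of 0.59 was next to 0.58 for all models. Higher in replicate 1 were 14 of 34 (41.2%), compared with 27.4% of all models, and higher in replicate 2 were 7 of 34 (20.6%), compared with 27.1%. The median log2 ratio, replicate 1 over replicate 2, was 0.32 for the members. For all models it was 0.00. At least 2-fold apart among the called were 5 of 34 (14.7%), compared with 24.7%, and all 5 (IAA6, IAA7, IAA10, IAA14 and ARF4) were higher in replicate 1.

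**Figure D3:**
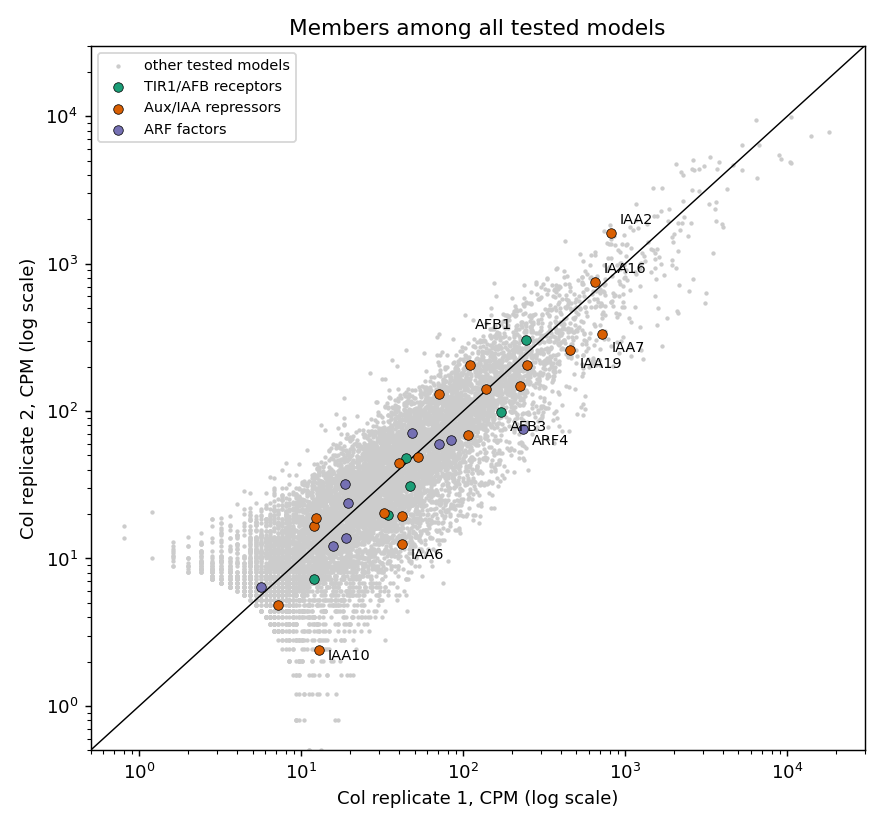
CPM in Col replicate 1 and Col replicate 2 (log scales) for all models tested (grey) and for the members by family, with the line of equality. Members lie within the cloud of other models, with IAA2 above the line and IAA7, IAA19 and ARF4 below it.

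The most abundant Aux/IAA genes moved in different directions. IAA2 was higher in replicate 2 by 0.98 on the log2 scale (814 against 1610 CPM, adjusted p = 6.75e-144, exact binomial test). IAA1 (70.6 and 131 CPM, log2 ratio -0.88) and IAA4 (110 and 206 CPM, -0.91) were higher in replicate 2 as well. IAA16 differed little in size, at 649 and 756 CPM (-0.22, adjusted p = 2.51e-05, exact binomial test). These were the 4 Aux/IAA genes that passed the test as higher in replicate 2.

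The 9 Aux/IAA genes higher in replicate 1 were IAA3, IAA5, IAA6, IAA7, IAA10, IAA14, IAA17, IAA19 and IAA29. IAA7 had 720 and 332 CPM (log2 ratio 1.12, 95% counting interval 1.00 to 1.24). The second listed model of IAA7 was far lower and went the other way, with 19.7 and 31.0 CPM (-0.64, adjusted p = 0.03, exact binomial test). IAA19 had 457 and 260 CPM (0.81) and IAA29 had 223 and 148 CPM (0.59). IAA6, a close relative of IAA19, had 104 and 31 counts (1.70, interval 1.15 to 2.37). IAA10 had the largest ratio but few counts, 32 and 6, and a wide interval from 1.13 to 3.96.

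Of the other families, ARF4 had the largest difference, with 233 and 75.6 CPM (log2 ratio 1.62, interval 1.38 to 1.87, adjusted p = 1.06e-45, exact binomial test). ARF18 was also higher in replicate 1 (0.38), a call that was lost without TMM scaling (0.29, adjusted p = 0.1, exact binomial test). Both ARF5 (-0.77) and ARF10 (-0.55) were higher in replicate 2. Among the receptors, AFB3 (0.80), AFB5 (0.79) and TIR1 (0.59) were higher in replicate 1 and AFB1 (-0.32) in replicate 2. AFB2 did not pass the test (-0.13, interval -0.52 to 0.26), nor did AFB4 (0.70, interval -0.16 to 1.66). The remaining members tested that did not pass were IAA18, IAA20, IAA26, IAA27, IAA28, IAA30, ARF3, ARF9, ARF16, ARF17 and ARF19. Their log2 ratios lay between -0.58 and 0.54.

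**Figure D4:**
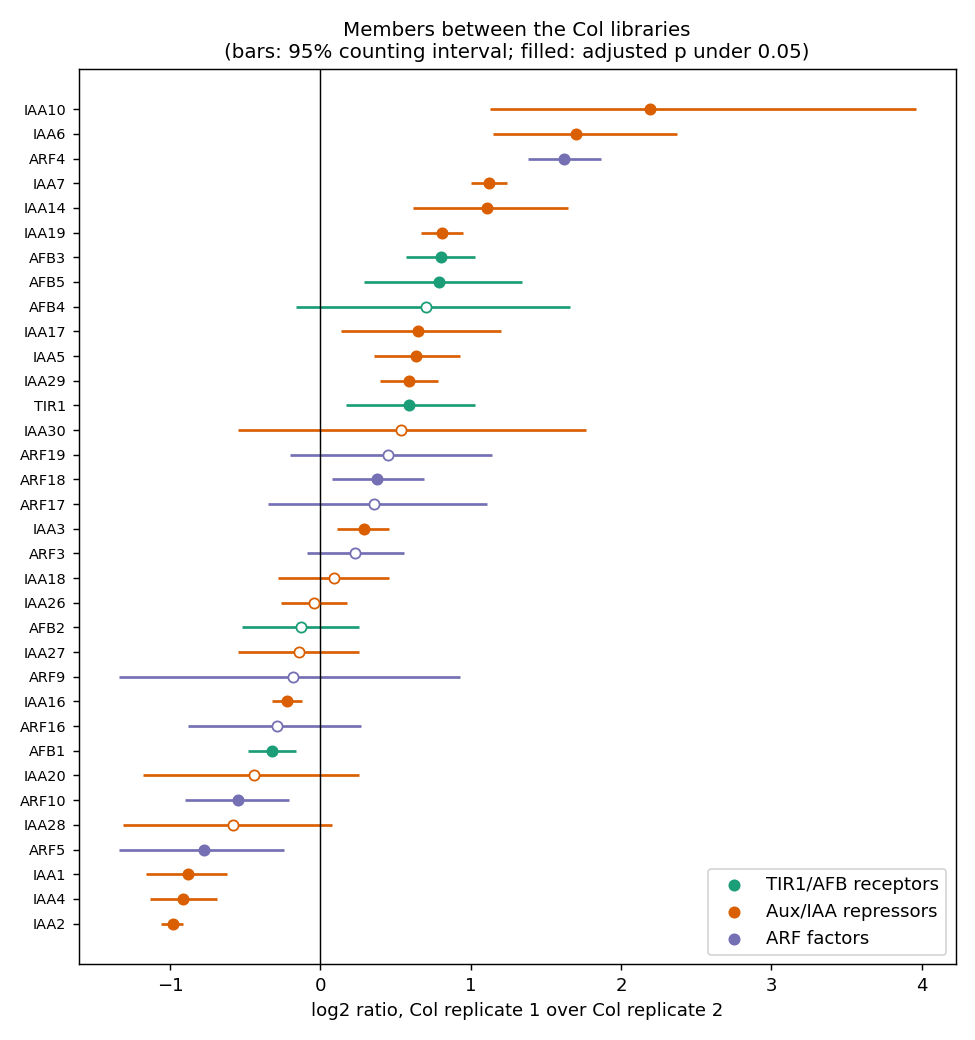
Log2 ratio of Col replicate 1 over Col replicate 2 for the 34 members tested, with 0.5 CPM added to each level, colours by family, bars for the 95% counting interval of the raw counts and filled points for adjusted p under 0.05. IAA2, IAA4 and IAA1 lie lowest, and IAA10, IAA6 and ARF4 lie highest.

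Several members are neighbours on the chromosome. The loci IAA2 and IAA7 on chromosome 3 are 12.5 kb apart, IAA1 and IAA14 on chromosome 4 are 10.7 kb apart and IAA3 and IAA17 on chromosome 1 are 6.39 kb apart, each transcribed away from the other with 1 annotated gene between (TAIR10.1). IAA2 and IAA1 were higher in replicate 2 while their neighbours IAA7 and IAA14 were higher in replicate 1. IAA3 and IAA17 were both higher in replicate 1, although the call of IAA17 was lost without TMM scaling (adjusted p = 0.056, exact binomial test).

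Of the rest of the pathway, 6 lists of genes upstream and downstream were examined. In the SCF and cullin list 5 of 9 genes were listed, of which ASK2 and SGT1B were called higher in replicate 1 and ECR1 in replicate 2. The SCF adaptor gene ASK1 led at 254 ± 17.9 CPM per kb. SGT1B, a cochaperone needed for TIR1 function, stood at 101 ± 23.2 and the adaptor gene ASK2 at 82.4 ± 52.9. AXR1 was listed with isoform 3, at 0 in both libraries. Of 5 TOPLESS family corepressors, 3 were listed and TPR2 was the highest, at 3.49 and 8.34 CPM per kb, and was called higher in replicate 2. TPL was listed with isoform 3, at 0 and 4 counts, and TPR4 with isoform 2, at 0 in both libraries. These values describe the listed models and may differ from the whole genes.

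Of 12 auxin synthesis genes, 8 were listed and 4 reached 5 CPM. TAA1, the aminotransferase of the first step, was the highest per length, with 30.5 and 24.1 CPM, and did not pass the test (log2 ratio 0.33). YUC2 (15.7 and 8.05 CPM) and YUC8 (23.3 and 12.5 CPM), flavin monooxygenases that make auxin, were higher in replicate 1. Of 8 GH3 genes, whose enzymes conjugate auxin to amino acids, 7 were listed and 5 tested. GH3.3 (61.4 and 118 CPM) and GH3.2 (2.81 and 8.05 CPM) were higher in replicate 2 and GH3.6 (86.7 and 48.3 CPM) in replicate 1. GH3.5 (102 and 86.1 CPM) did not pass the test. Of 12 SAUR genes, which promote cell expansion, 5 were listed and 4 tested. SAUR16, the highest per length by its mean only, had 56.6 and 72.8 CPM and did not pass the test (log2 ratio -0.36, adjusted p = 0.051, exact binomial test). Per length SAUR15 was above SAUR16 in replicate 1 (68.5 against 54 CPM per kb) and below it in replicate 2 (26.5 against 69.5). SAUR15 (53.0 and 20.5 CPM), SAUR21 (26.9 and 7.24 CPM) and SAUR22 (20.5 and 4.02 CPM) were higher in replicate 1. SAUR21 and SAUR22 belong to a cluster of near-identical copies, so reads could have been split or dropped among them. All 7 of the other auxin-responsive genes were listed, and 4 reached 5 CPM. LBD18 and LBD29 were at 0 in both libraries, and LBD16 had 6 counts in replicate 1 and 0 in replicate 2. HAT2 (253 and 152 CPM) and ATHB2 (336 and 297 CPM) were higher in replicate 1, and PID (13.6 and 25.3 CPM) and ACS4 (6.02 and 18.5 CPM) in replicate 2. These lists are too short to read a direction from, since over all models 27.4% were called higher in replicate 1 and 27.1% in replicate 2.

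For identification, the leading Aux/IAA members by locus are AT3G23030 (IAA2), AT3G23050 (IAA7), AT3G15540 (IAA19) and AT3G04730 (IAA16). The leading receptors are AT4G03190 (AFB1) and AT1G12820 (AFB3), and the leading ARF gene by its mean is AT5G60450 (ARF4). TIR1, which was not among the leading receptors, is AT3G62980.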

How the data were processed

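The authors deposited whole-number counts for each gene model, in columns that their headers call raw. Submitters' processing notes name TAIR10 as the build; aligner, counter, strand setting and filters were not given in the labels or headers. A total of 6 count columns with names that match no sample label were not used. Members and gene lists were chosen with earlier results of these data known.

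Library sums were scaled with TMM in edgeR 4.0.16 (R 4.3.3), and a locus with several models took its highest one. CPM was divided by the exonic length of that model in the TAIR10.1 annotation (17511 of 17921 models; 8 used their locus's longest model and 402 had none). Models averaging 5 CPM or more were tested with an exact binomial test of their split between the libraries (scipy 1.17.1, 2 times the smaller tail), with Benjamini-Hochberg adjustment over all 10701 tested and a threshold of 0.05. Log2 ratios add 0.5 CPM. The test was checked on simulated data. Coding identity came from global alignment (Biopython 1.88). All 50 members were accounted for by name. Of the other lists the rule named up to 3 genes by CPM per kb. ECR1, GH3.2, SAUR22 and ACS4, which passed the test, were added after their values were seen. AXR1, LBD16, LBD18 and LBD29, which were too low to be tested, were added in the same way. Genotype contrasts were not analysed here. Filters, scaling, pseudocount, length and replicate were varied.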

Additional observations from a re-analysis of the deposited data

How the results depend on the processing

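The number of members differing between the libraries was 21 and stayed between 19 and 21 under RLE factors, no scaling, filters at 1 and 20 CPM, no filter, and without organelle models. The count over all models stayed between 4632 and 5961. As shares of those tested, members and all models stood at 61.8% and 45% with the filter at 1 CPM. At 20 CPM they stood at 76.9% and 66.2%, with no filter at 60% and 40.5%, and without scaling at 55.9% and 54.2%. The gap between members and background therefore depended on the setting. Without scaling, calls over all models split as 2572 higher in replicate 1 and 3215 in replicate 2, against 2934 and 2901, and IAA17 (adjusted p = 0.056) and ARF18 (adjusted p = 0.1, exact binomial test) lost their calls. No called member changed sign under the scalings and pseudocounts tried; IAA18, not called, went from 0.09 to 0.00 without scaling. The column header numbers as library sizes were chosen after seeing the data. With them 20 of 31 members (64.5%) and 5497 of 9316 models (59%) were called. In that setting 31 members reached 5 CPM, and the medians were 15.5 CPM per kb for Aux/IAA, 8.61 for receptors and 4.67 for ARF genes. Otherwise members at 5 CPM or more numbered 32 without replicate 1 and 34 without replicate 2. The median Aux/IAA level was 28.4 CPM per kb, 18.8 without replicate 1 and 28 without replicate 2. That of the receptors was 14.7 and 16.9, and that of the ARF genes 9.44 and 7.66. As TPM the medians were 37.4 for Aux/IAA, 20.7 for receptors and 11.3 for ARF genes, a change of unit that kept their order. No paired analysis was possible because only Col columns carried a labelled genotype, and a lone group has no pairs. Depth limits low members most: at 6 to 40 counts, intervals on the log2 ratio often spanned more than 1 unit.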
